A study of Mus musculus with 19 samples.

Results

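The 10 genes described here encode plasma membrane carriers that bring amino acids into liver cells or exchange them, and were taken by symbol: Slc38a1, Slc38a2, Slc38a3, Slc38a4, Slc7a2, Slc7a5, Slc3a2, Slc1a4, Slc1a5 and Slc43a1. All 10 were among the 13549 genes of the embryonic liver table and among the 17606 genes of the tumour files, and all 10 passed the filter on low values in both. The embryonic livers were dissected on embryonic day 18.5 from 5 control embryos, whose exact alleles the labels leave unspecified, and from 4 embryos overexpressing a DNAJB1-PRKACA fusion, which joins a chaperone to the kinase subunit of protein kinase A (PKA) and is found in fibrolamellar carcinoma of the liver. The fusion cDNA, with a GFP reporter, sits in the Rosa26 locus behind a stop cassette that Cre recombinase, driven by the albumin promoter, removes in the liver from mid-gestation. The tumours grew from 1 mouse cell line, FL8, placed in gelatin capsules under the flank skin of immunodeficient NSG mice, so that their RNA can include that of host cells. When the tumours averaged 75 mm3 the mice were randomized to 5 given the methocel vehicle and 5 given palbociclib, a CDK4/6 inhibitor that blocks entry into the cell cycle, by gavage at 75 mg/kg for 3 days followed by 4 days without treatment. Methocel is named in the treatment protocol, while the series description names PBS for the control tumours.

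The liver takes up amino acids for protein synthesis, for glucose production and for the urea cycle, and its carriers are grouped by what they move. Sodium-coupled carriers of systems A and N (the Slc38 family) concentrate small neutral amino acids and glutamine, the cationic carriers of the Slc7 family move arginine, lysine and ornithine, and exchangers (Slc1a4, Slc1a5, and Slc7a5 with its partner Slc3a2) trade one amino acid for another. Glucagon, which acts in hepatocytes through cyclic AMP and PKA, is known to raise amino acid uptake by the liver.

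Embryo libraries held 7660736 to 23144891 counts in controls and 13527381 to 45591301 in fusion livers, and tumour libraries 2955729 to 33863983 reads with vehicle and 24857723 to 43141761 with palbociclib. Prkaca, the mouse gene of that kinase subunit, was at 36.3 to 50.5 CPM (counts scaled to a total of 1000000) in control and 52.0 to 114 CPM in fusion livers (edgeR adjusted p = 0.0379). Dnajb1, the mouse gene of the chaperone, was at 41.7 to 52.9 CPM in control and 51.7 to 74.3 CPM in fusion livers. Its groups overlapped (edgeR adjusted p = 0.0493). Hepatocyte markers summed to 121343 to 174002 CPM in control livers and 87734 to 151036 CPM in fusion livers, so the labelled tissue expressed them in every library. In 4 embryo libraries (control 1 and 2, fusion 8 and 9) ribosomal protein genes took 8.89 to 9.35% of counts against 5.79 to 7.35% in the other 5, a split that crosses the genotypes. Xist was high in control 1 and 2 and in fusion 6, 7 and 8, which marks them as female, and low in the others. Among the controls the Xist and ribosomal splits were the same. In the 5 libraries with the lower ribosomal protein share, every control was low in Xist and every fusion liver was high. Sex and genotype therefore cannot be told apart within that side. The vehicle 1 tumour stood apart, with 46.6% of its reads on mitochondrially encoded genes against 1.24 to 6.47% in the other 9 tumours, and vehicle 5 was the shallowest library, at 2955729 reads.

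In embryonic liver 6 of the 10 transporter genes passed the test, 5 higher and 1 lower with the fusion, beside 12.8% of the 13316 genes tested (5.99% higher and 6.81% lower). The genes that rose were Slc7a2, Slc38a3, Slc38a4, Slc38a2 and, by the smallest margin, Slc43a1, and the gene that fell was Slc1a4. For the same 6 genes no fusion library overlapped a control library, which held for 16.5% of all genes tested (8.37% with the fusion livers above and 8.15% with them below). The median log2 fold change of the 10 was 0.25, against -0.01 over all genes tested. The 10 genes, and the lists described below, were chosen with earlier results of these data known, so these shares are not an independent test. The groups were compared with edgeR's quasi-likelihood test on counts, and p-values were adjusted over all genes tested. In bulk liver, fewer cells of a type and less RNA per cell cannot be told apart.

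**Figure D1:**
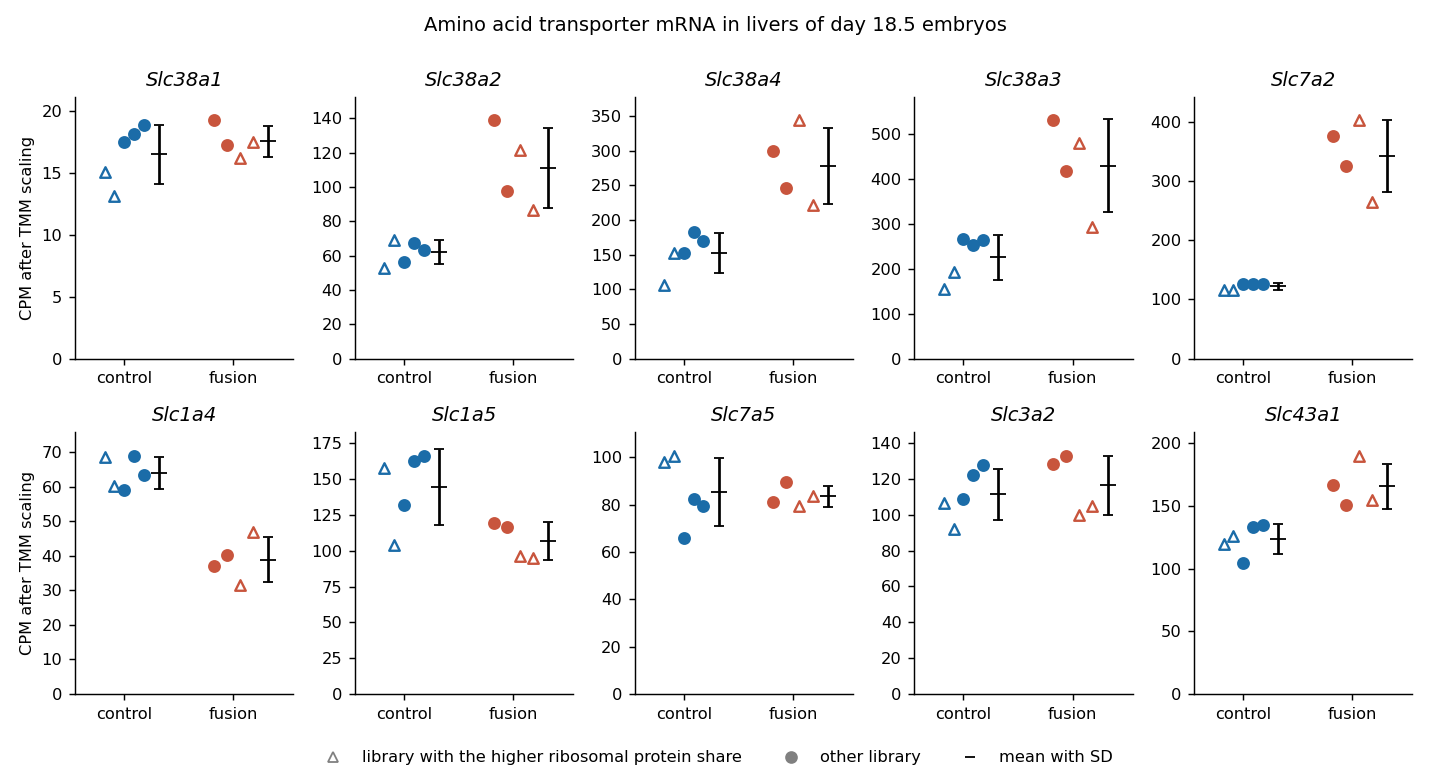
CPM (vertical axes, after TMM scaling, each starting at 0) of the 10 transporter genes in 5 control and 4 fusion livers. Each point is 1 embryo, triangles mark the 4 libraries with the higher ribosomal protein share, and bars show the mean with SD; for Slc7a2, Slc38a2, Slc38a3, Slc38a4 and Slc43a1 every fusion liver lies above every control liver, and for Slc1a4 below.

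Slc7a2 encodes a cationic carrier of arginine, lysine and ornithine whose liver form has a low affinity, and lies on chromosome 8 (GRCm38, 8:40862396-40922308, plus strand). Its level was 116, 115, 126, 125 and 126 CPM in control livers 1 to 5 and 375, 325, 402 and 264 CPM in fusion livers 6 to 9. The controls lay close together, and even the lowest fusion liver, number 9, was far above them. The mean went from 122 ± 5.69 CPM (SD, n = 5) to 341 ± 60.9 CPM (SD, n = 4), a 2.80-fold rise, and the log2 fold change was 1.49 ± 0.14 (SE; 95% interval 1.18 to 1.79; edgeR adjusted p = 0.000108). Among the 10 genes this was the largest difference. It was 1.53 among the 4 libraries with the higher ribosomal protein share and 1.48 among the other 5, where genotype and sex coincided. Exons of Slc7a2 overlap those of an antisense gene, Gm26584, and whether the counting used strand is not given in the sources used here.

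Slc38a3 encodes a system N carrier that takes up glutamine, histidine and asparagine in hepatocytes, and lies on chromosome 9 (9:107650634-107669530, minus strand). Control livers 1 to 5 had 154, 192, 267, 253 and 263 CPM, and fusion livers 6 to 9 had 531, 417, 480 and 293 CPM. Controls 1 and 2 were the lowest, fusion 9 was close above the highest control, and the groups did not overlap. The mean was 226 ± 50.4 CPM in controls (SD, n = 5) and 430 ± 103 CPM with the fusion (SD, n = 4), with a log2 fold change of 0.93 ± 0.21 (SE; 95% interval 0.47 to 1.39; edgeR adjusted p = 0.0159). The difference was 1.17 among the 4 libraries with the higher ribosomal protein share and 0.86 among the rest, where genotype and sex coincided.

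Neighbouring genes on the minus strand of chromosome 15, within 485 kb, encode the system A carriers of small neutral amino acids such as alanine: Slc38a1 (15:96571418-96642913), Slc38a2 (15:96687392-96699730) and Slc38a4 (15:96994820-97055956). Slc38a4, the form typical of liver, was at 107, 152, 152, 182 and 169 CPM in control livers 1 to 5 and at 299, 246, 343 and 222 CPM in fusion livers 6 to 9. All fusion livers were above all controls, with fusion 9 again lowest and control 1 the lowest of the controls. Its log2 fold change was 0.86 ± 0.18 (SE; 95% interval 0.47 to 1.26; edgeR adjusted p = 0.0108). Slc38a2, the widely expressed form known to be induced by amino acid shortage, was at 52.8, 69.3, 56.4, 67.4 and 63.2 CPM in controls and 139, 97.4, 121 and 86.5 CPM with the fusion. These groups did not overlap either, and the log2 fold change was 0.85 ± 0.15 (SE; 95% interval 0.51 to 1.18; edgeR adjusted p = 0.00547). Slc38a1, a form best known from brain and placenta, was the lowest of the 10 transporters, at 15.04, 13.1, 17.4, 18.1 and 18.9 CPM in controls and 19.2, 17.2, 16.2 and 17.5 CPM with the fusion. Its groups overlapped, and its log2 fold change of 0.08 ± 0.13 (SE; 95% interval -0.20 to 0.36) did not pass the test (edgeR adjusted p = 0.720). On a per-length scale the Slc38a4 level was 13.1 to 21.5 times that of Slc38a1 in the control livers and 23.4 to 39.2 times in the fusion livers.

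Slc1a4 and Slc1a5 encode sodium-dependent exchangers of neutral amino acids: Slc1a4 (11:20302180-20332713, minus strand) moves alanine, serine and cysteine, and Slc1a5 (7:16781340-16798274, plus strand) also moves glutamine. Slc1a4 was at 68.6, 60.2, 58.9, 68.9 and 63.3 CPM in control livers and 36.9, 40.2, 31.4 and 46.8 CPM in fusion livers. All fusion livers lay below all controls, with fusion 9 nearest to them. The mean fell from 64.0 ± 4.62 CPM (SD, n = 5) to 38.8 ± 6.44 CPM (SD, n = 4). The log2 fold change was -0.72 ± 0.13 (SE; 95% interval -0.9998 to -0.44; edgeR adjusted p = 0.00484). Slc1a5 was at 158, 104, 132, 163 and 166 CPM in controls and 119, 117, 96.3 and 94.8 CPM in fusion livers. Control 2 lay within the range of the fusion livers, and the other 4 controls were above it. Its log2 fold change of -0.44 ± 0.16 (SE; 95% interval -0.78 to -0.09) did not pass the test (edgeR adjusted p = 0.0923). Its adjusted p was under 0.05 without control 2 (0.0330), with DESeq2 (0.0450), with limma-voom (0.0366) and with the ribosomal split as a covariate (0.0196). In these fits 11.2, 18.3, 17.7 and 32.6% of all genes passed, in that order, against 12.8% in the main fit. Slc1a5 missed the threshold in 7 of the 10 alternatives (edgeR adjusted p up to 0.141) and in 8 of the 9 fits without 1 embryo (up to 0.204).

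The large neutral amino acid carriers include Slc7a5 (8:121881150-121907694, minus strand), which imports leucine and other large neutral amino acids, and Slc3a2 (19:8706882-8723369, minus strand), the heavy chain that brings Slc7a5 to the membrane. Slc7a5 was at 98.3, 101, 65.8, 82.4 and 79.4 CPM in controls and 81.3, 89.8, 79.2 and 83.6 CPM in fusion livers, all of which lay within the control range. Slc3a2 was at 107, 91.9, 109, 122 and 128 CPM in controls and 128, 133, 99.6 and 105 CPM in fusion livers, with wide overlap. Neither passed the test, with log2 fold changes of -0.03 (95% interval -0.33 to 0.27; edgeR adjusted p = 0.913) and 0.06 (95% interval -0.24 to 0.37; adjusted p = 0.804). Slc43a1 (2:84838850-84863594, plus strand), a facilitated carrier of branched-chain amino acids and phenylalanine, was at 119, 126, 104, 133 and 135 CPM in controls and 167, 150, 190 and 155 CPM in fusion livers. The groups did not overlap, but the gap between the highest control and the lowest fusion liver was small. Its log2 fold change was 0.42 ± 0.12 (SE; 95% interval 0.15 to 0.69; edgeR adjusted p = 0.0458), and it passed the threshold in none of the 9 fits that left out 1 embryo (adjusted p 0.0547 to 0.121).

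**Figure D2:**
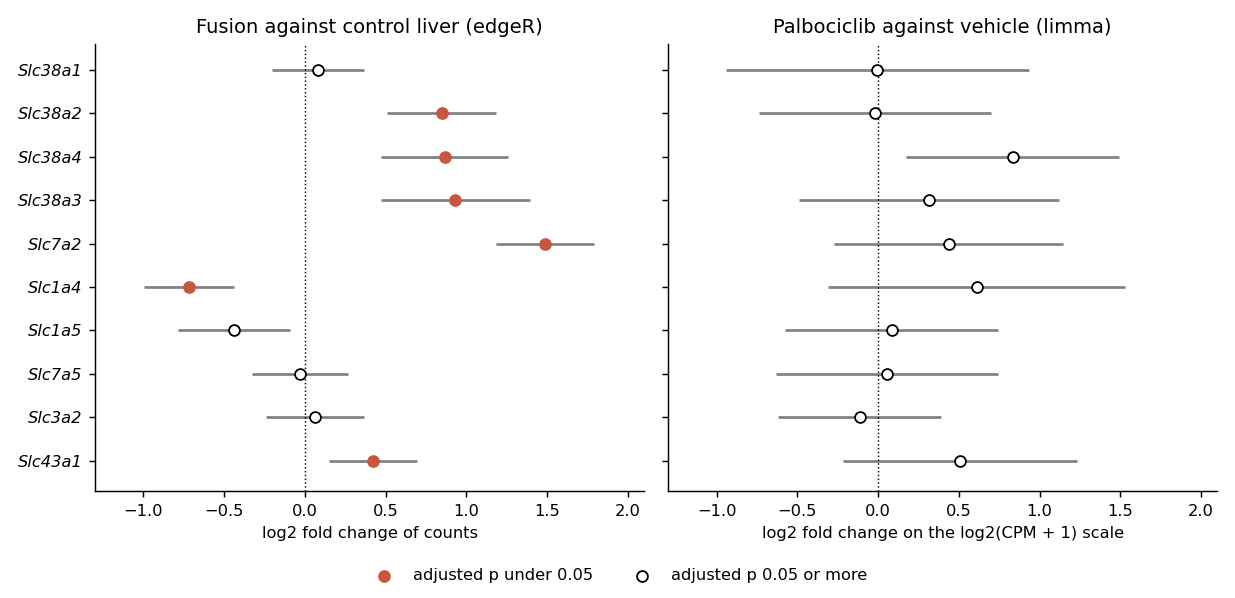
Log2 fold change (horizontal axes) of each transporter with its 95% interval, for fusion against control livers (left, edgeR on counts) and palbociclib against vehicle tumours (right, limma on log2(CPM + 1)). Filled points have an adjusted p under 0.05: 6 genes on the left, from -0.72 for Slc1a4 to 1.49 for Slc7a2, and none on the right, where the intervals are wider.

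Markers of other cells also differed between the embryo groups. Of all genes tested, 5.99% were called higher and 6.81% lower. The 6 cholangiocyte markers, all in the table and none at 0 in every library, summed to 50.9 to 74.5 CPM in controls. In fusion livers they summed to 11.9 to 41.6 CPM, and 3 of the 6 were lower by the test (Krt19, Krt7 and Epcam). Spp1, in the same sum, did not pass, at 24.8 to 49.3 CPM in controls and 2.61, 5.16, 6.90 and 25.4 CPM in fusion livers 6 to 9. The 6 macrophage markers summed to 594 to 708 CPM in controls and 501 to 553 CPM with the fusion, and none passed the test. Fibroblast and stellate cell markers summed to 237 to 422 CPM in controls and 197 to 304 CPM with the fusion, so the groups overlapped. Of these 6 genes 2, Col1a1 and Col1a2, were lower. Another collagen gene of that list, Col3a1, did not pass, at 35.4 to 96.0 CPM in controls and 34.8 to 96.7 CPM with the fusion. Of the 9 hepatocyte markers 1, Apoa1, was lower (log2 fold change -0.89, edgeR adjusted p = 0.0382). Of 6 pancreas markers only Cela1 was in the table, and it was higher, at 27.4 to 38.1 CPM in controls and 38.3 to 70.5 CPM with the fusion. Erythroid and endothelial marker sums overlapped between the groups, and none of those genes passed the test. Of the 10 erythroid and haematopoietic markers 7 were in the table, without the globin genes Hbb-bt, Hba-a1 and Hba-a2. The part of any of these markers in the transporter differences was not tested.

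RefSeq promoter windows (250 bases before to 50 after a transcription start, GRCm38.p6) were matched for 5 of the 10 genes: Slc38a2, Slc38a4, Slc1a4, Slc3a2 and Slc43a1. The sequences before the start are shown for Slc38a2 and Slc38a4, which rose, and Slc1a4, which fell, since PKA acts on transcription through factors that bind the cyclic AMP response element. Capitals mark its half-site TGACG, read on either strand; each line runs 5′ to 3′ on the gene's own strand. The Slc38a2 line has 248 bases, since the 2 bases next to the RefSeq start lie in an annotated exon and are left out.
Slc38a2, chr15:96699731-96699978, minus strand: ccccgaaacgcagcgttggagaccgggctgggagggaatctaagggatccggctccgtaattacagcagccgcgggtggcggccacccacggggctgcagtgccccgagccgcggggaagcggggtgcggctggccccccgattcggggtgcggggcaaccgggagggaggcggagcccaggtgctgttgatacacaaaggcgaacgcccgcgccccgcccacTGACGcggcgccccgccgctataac
Slc38a4, chr15:97055957-97056206, minus strand: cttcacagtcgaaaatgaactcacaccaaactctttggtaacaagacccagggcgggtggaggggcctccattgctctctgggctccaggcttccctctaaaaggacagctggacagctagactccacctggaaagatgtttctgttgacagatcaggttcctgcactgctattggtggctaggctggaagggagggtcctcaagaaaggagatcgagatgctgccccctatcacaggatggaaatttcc
Slc1a4, chr11:20332714-20332963, minus strand: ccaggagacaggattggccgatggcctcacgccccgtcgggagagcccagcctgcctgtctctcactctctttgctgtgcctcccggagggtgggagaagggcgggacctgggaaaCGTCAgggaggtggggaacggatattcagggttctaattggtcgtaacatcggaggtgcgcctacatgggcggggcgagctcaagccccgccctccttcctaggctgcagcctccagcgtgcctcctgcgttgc

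The Slc38a2 window held 1 half-site, beginning 27 bases before the RefSeq start, and the Slc1a4 window held 1 on the opposite strand, 134 bases before it. A half-site stood in 20.8% of the 32851 windows of the same length. The Slc38a4 window shown held none, and a second Slc38a4 window (15:97031164-97031463) held 1, at 110 bases before its start. A further Slc38a4 window (15:97020310-97020609) held none, nor did the windows of Slc43a1, which also rose, and Slc3a2. The full element TGACGTCA, which contains the half-site, was in 1.79% of all windows and in none of the 7 windows of these genes. The letters TGATGNAA, the core of the element bound by ATF4 in the amino acid response, were in 3.97% of windows and, among these genes, in that of Slc1a4 alone, beginning 4 bases before the start. Such matches are descriptions of the letters, not evidence that a factor binds there.

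Per kilobase of the longest coding transcript, the order of the genes shifted between control and fusion livers. In controls Slc38a3 was highest at 71.7 ± 15.99 CPM per kb (SD, n = 5), followed by Slc1a5 at 52.3 and by Slc43a1, Slc3a2 and Slc38a4 at 40.0, 39.6 and 38.8. Slc7a5 (24.3), Slc1a4 (16.3), Slc7a2 (15.4) and Slc38a2 (13.3) came next, and Slc38a1 (2.27) was last. Neighbours in this order overlapped between libraries, except Slc7a5 above Slc1a4 and Slc38a2 above Slc38a1. With the fusion, Slc38a3 was at 137 ± 32.6 CPM per kb (SD, n = 4) and above every other transporter in every library. Slc38a4 (70.6), Slc43a1 (53.6), Slc7a2 (43.2), Slc3a2 (41.4) and Slc1a5 (38.6) followed, then Slc38a2 (23.8), Slc7a5 (23.7), Slc1a4 (9.89) and Slc38a1 (2.41). Slc7a2 thus moved from the eighth place to the fourth and Slc1a5 from the second to the sixth. Neighbours overlapped here too, except Slc38a3 above Slc38a4, Slc1a5 above Slc38a2, Slc7a5 above Slc1a4 and Slc1a4 above Slc38a1.

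The 4 genes with the largest rises (Slc7a2, Slc38a2, Slc38a3 and Slc38a4), grouped here because of those rises, made up 36.0, 45.1, 49.2, 45.4 and 45.04% of the summed CPM per kb of the 10 transporters in control livers 1 to 5. In fusion livers 6 to 9 they made up 64.4, 59.3, 65.8 and 55.7%. The sum over all 10 was 283 to 347 CPM per kb in controls and 361 to 500 CPM per kb in fusion livers. Since the 4 genes were picked for their rises and are part of that sum, neither difference adds to the results of the single genes. In the tumours the same 4 genes held 60.0 to 72.5% with vehicle and 61.4 to 74.5% with palbociclib.

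**Figure D3:**
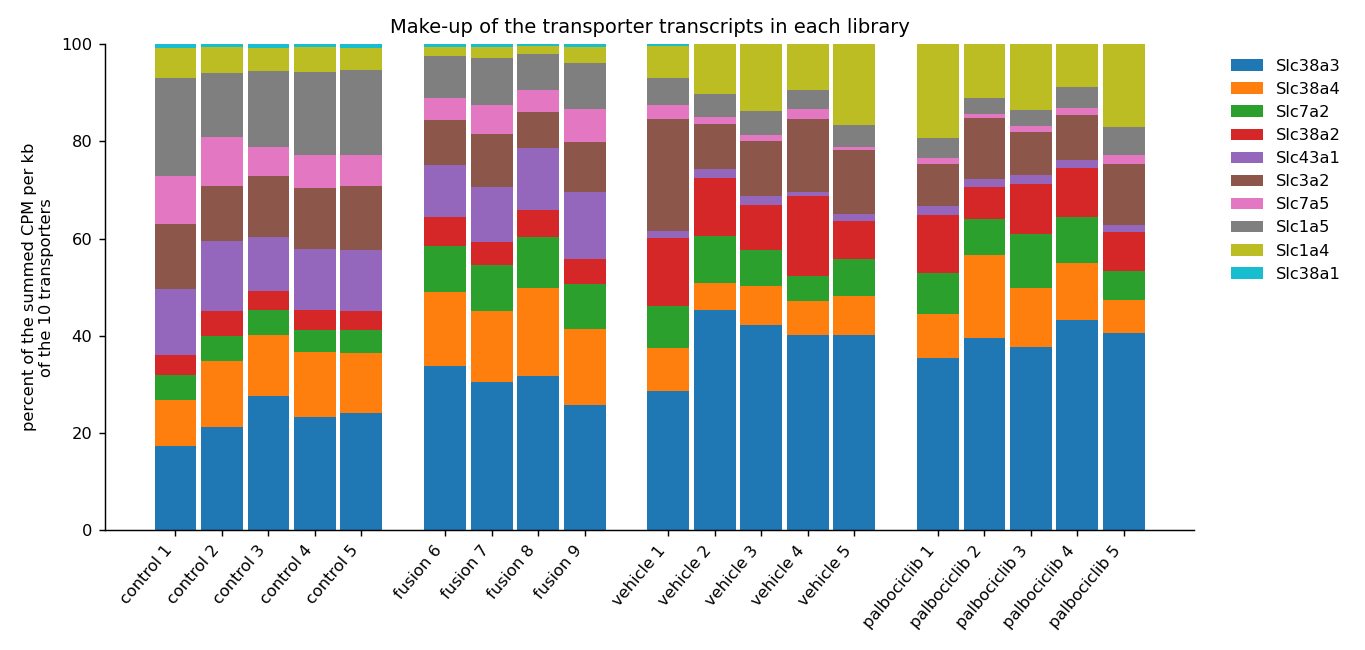
Share of each transporter in the summed CPM per kb of all 10 (vertical axis, percent), 1 bar per library. The 4 lowest blocks (Slc38a3, Slc38a4, Slc7a2 and Slc38a2) reach 36.0 to 49.2% in control livers and 55.7 to 65.8% in fusion livers, while the top blocks show more Slc1a4 and less Slc1a5 in the tumours than in the livers.

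Of 30 other amino acid transporters, 25 were tested in the embryos, and none passed as higher and 4 as lower with the fusion, or 16% beside the 12.8% of all genes called in either direction, with a median log2 fold change of -0.13 against -0.01 over all genes. Slc7a8, a light chain partner of Slc3a2 for neutral amino acids, went from 21.1 ± 1.59 CPM (SD, n = 5) to 14.98 ± 0.763 CPM (SD, n = 4), with a log2 fold change of -0.50 (edgeR adjusted p = 0.0120). Slc7a4 went from 15.5 to 5.29 CPM (log2 fold change -1.56, adjusted p = 0.0147), and Slc7a3, a cationic carrier, from 1.09 to 0.445 CPM (-1.32, adjusted p = 0.0150). Slc38a6 went from 4.52 to 2.42 CPM (-0.89, adjusted p = 0.0488), and its groups overlapped. Slc7a1, the widely expressed cationic carrier, was at 21.0 ± 2.23 CPM in controls (SD, n = 5) and 23.4 ± 1.79 CPM with the fusion (SD, n = 4), and did not pass (log2 fold change 0.15, adjusted p = 0.411). The number of these genes past the threshold was 2 with a mean of at least 10 CPM required, where 14.6% of all genes passed, and 8 with the ribosomal split as a covariate, where 32.6% of all genes passed.

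**Figure D4:**
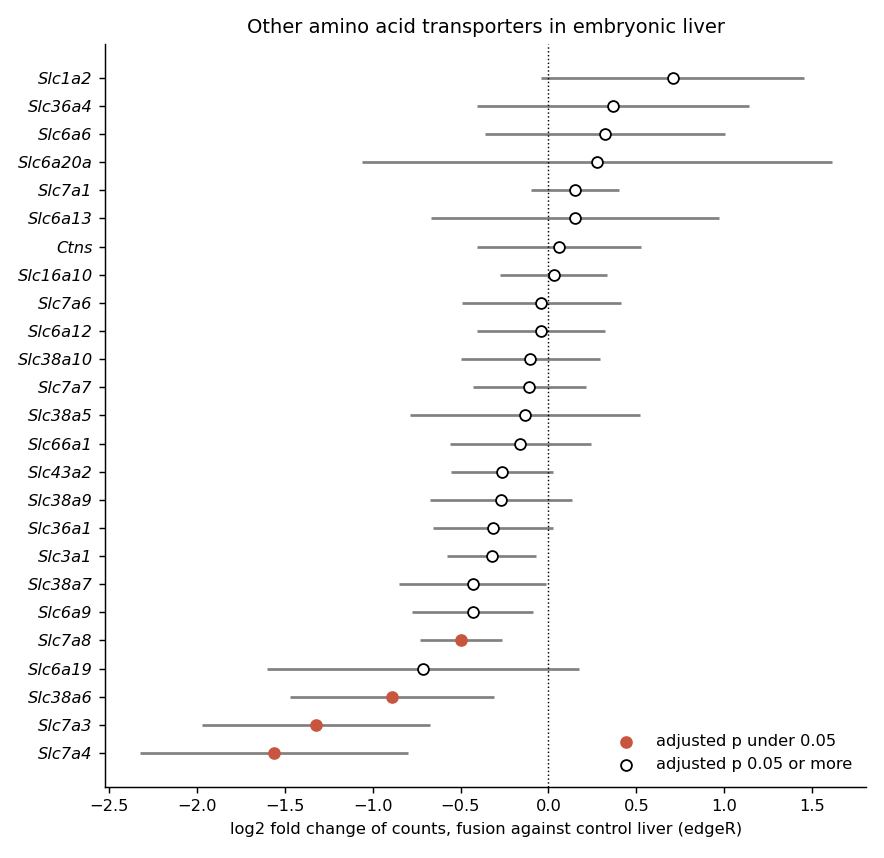
Log2 fold change (horizontal axis, fusion against control livers, edgeR) with 95% interval for the 25 other amino acid transporters tested. The 4 filled points, Slc7a8, Slc38a6, Slc7a3 and Slc7a4, have an adjusted p under 0.05 and lie below 0.

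Genes of the amino acid response, the programme driven by ATF4 when amino acids run short, did not move in 1 direction. Of 19 tested, 1 was higher and 5 were lower. The share called was 31.6%, beside 12.8% of all genes tested (5.99% higher and 6.81% lower). Their median log2 fold change was 0.04, against -0.01 over all genes tested. Vldlr, a lipoprotein receptor, rose from 3.88 to 16.8 CPM (log2 fold change 2.17, edgeR adjusted p = 0.000373). Atf5, a related transcription factor, fell from 841 to 418 CPM (-1.01, adjusted p = 0.00254), as did Eif4ebp1, an inhibitor of translation, from 157 to 88.6 CPM (-0.82, adjusted p = 0.00547). Trib3, a pseudokinase induced by ATF4, went from 11.6 to 6.13 CPM (-0.93, adjusted p = 0.0172), and Gpt2, the mitochondrial alanine aminotransferase, from 43.1 to 31.2 CPM (-0.47, adjusted p = 0.0285). Atf4 itself was at 487 ± 63.2 CPM in controls (SD, n = 5) and 428 ± 75.9 CPM with the fusion (SD, n = 4), and did not pass (adjusted p = 0.472).

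Of 22 enzymes that use the carried amino acids, 11 rose, 1 fell and 10 did not pass the test. The share called was 54.5%, beside 12.8% of all genes tested (5.99% higher and 6.81% lower). As the list was chosen with earlier results of these data known, setting these shares side by side is not an independent test. Their median log2 fold change was 0.62, against -0.01 over all genes tested. Tat, which degrades tyrosine, rose from 11.1 to 289 CPM (log2 fold change 4.68, edgeR adjusted p = 1.2e-05), and Sds, which turns serine into pyruvate, from 8.25 to 191 CPM (4.53, adjusted p = 5.59e-06). Got1, the cytosolic aspartate aminotransferase, rose from 76.2 to 1066 CPM (3.81, adjusted p = 2.27e-06), and Gpt, the cytosolic alanine aminotransferase, from 14.7 to 89.6 CPM (2.61, adjusted p = 7.78e-05). Glul, glutamine synthetase, fell from 440 to 310 CPM (-0.50, adjusted p = 0.0366). Tat, Sds, Got1 and Gpt had larger log2 fold changes than any of the 10 transporters.

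In the tumours none of the 10 transporters passed the test between palbociclib and vehicle, and 0% of the 12829 genes tested with limma on log2(CPM + 1) passed it. At an unadjusted p under 0.05 there was 1 of the 10, Slc38a4, beside 4.57% of all genes. Vehicle and palbociclib tumours overlapped for all 10 genes, while 0.935% of all genes did not overlap (0.834% higher and 0.101% lower with palbociclib). Neither edgeR nor DESeq2 on the whole reads recovered from the CPM called any of the 10. The median log2 fold change of the 10 was 0.20, against 0.14 over all genes. After TMM scaling these medians were 0.06 and 0.01. CPM include the mitochondrial reads, so values of vehicle 1 as deposited are low for most nuclear genes. That tumour also had the lowest hepatocyte marker sum, 40059 CPM against 83386 to 126400 CPM in the other 9, and the highest macrophage marker sum, 348 CPM against 6.09 to 60.4 CPM. Its cholangiocyte, endothelial and fibroblast marker sums were the highest too, at 128, 193 and 240 CPM against at most 87.4, 91.3 and 193 CPM with palbociclib. Erythroid markers reached 49783 CPM in another vehicle tumour, against 10914 CPM in vehicle 1 and 1111 to 5582 CPM with palbociclib. The part of these markers in the transporter values was not tested.

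**Figure D5:**
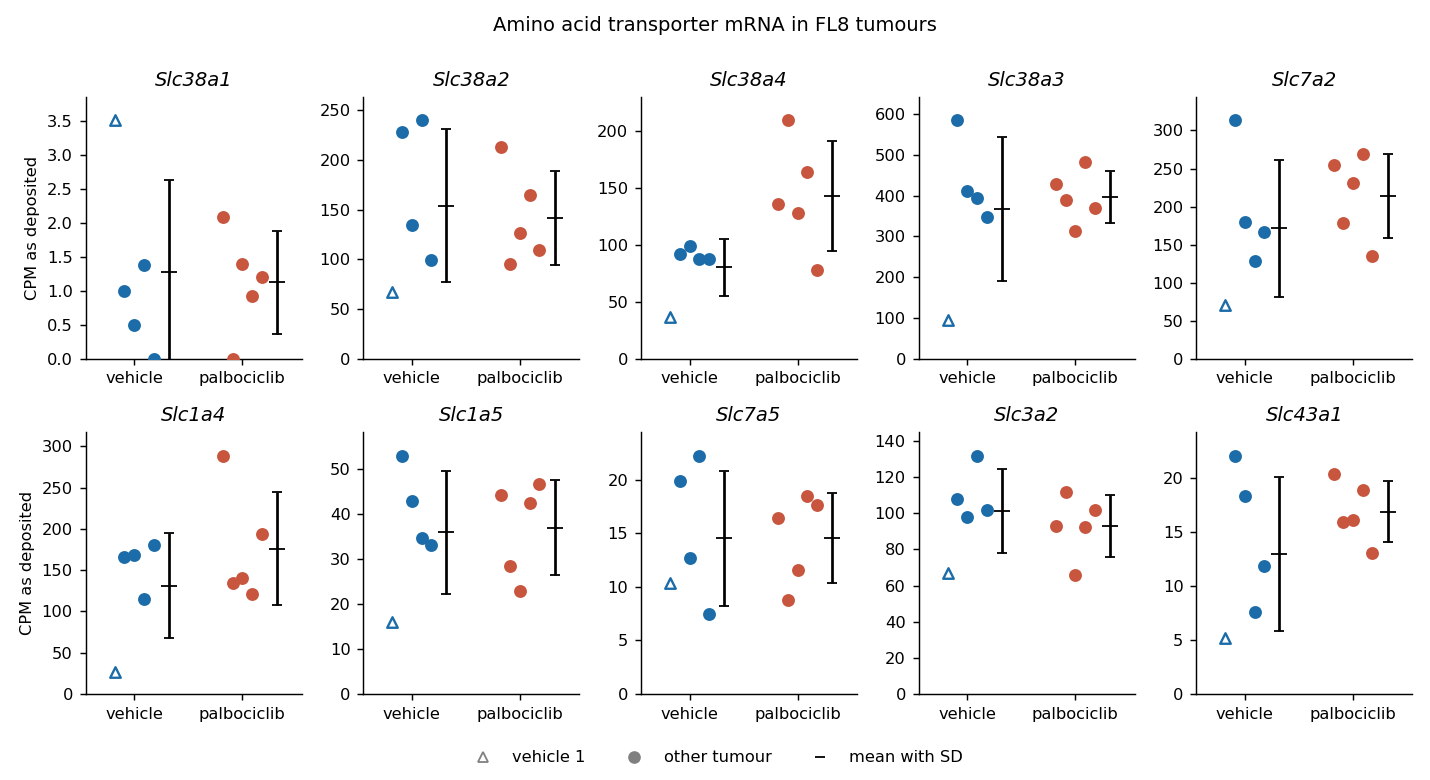
CPM as deposited (vertical axes, each starting at 0) of the 10 transporter genes in 5 vehicle and 5 palbociclib tumours. Each point is 1 tumour, the triangle marks vehicle 1, and bars show the mean with SD, cut at 0; vehicle 1 is the lowest of all 10 tumours for 7 of the genes, and the groups overlap in every panel.

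Slc38a4 was at 36.2, 91.6, 98.8, 87.5 and 87.3 CPM in vehicle tumours 1 to 5 and at 136, 209, 128, 164 and 77.7 CPM in palbociclib tumours 1 to 5. In palbociclib tumours 1 to 4 it was above every vehicle tumour, while palbociclib 5 lay inside the vehicle range. The log2 fold change was 0.83 ± 0.31 (SE; 95% interval 0.18 to 1.49), with an unadjusted p of 0.0161 and a limma adjusted p of 0.953. Without vehicle 1 it was 0.57. When mitochondrial genes were left out of the totals, vehicle 1 stood at 67.7 CPM, still the lowest tumour.

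The other carriers of systems A and N overlapped widely. Slc38a3 was at 93.4, 585, 412, 395 and 347 CPM with vehicle and 428, 389, 313, 483 and 370 CPM with palbociclib. Its log2 fold change of 0.32 ± 0.38 (SE; 95% interval -0.49 to 1.12; limma adjusted p = 0.957) became -0.12 without vehicle 1, which remained the lowest tumour, at 175 CPM, after mitochondrial genes were left out. Slc38a2 was at 67.2, 228, 135, 240 and 99.5 CPM with vehicle and 213, 95.7, 126, 165 and 109 CPM with palbociclib, and the groups overlapped (log2 fold change -0.02 ± 0.34, SE). Without vehicle 1 and 5 the value was -0.51 ± 0.26 (SE; limma adjusted p = 0.606). Slc38a1 had few reads, with 119, 21, 14, 34 and 0 reads in vehicle tumours and 73, 0, 51, 40 and 30 reads in palbociclib tumours. With a limit set at 3 reads, a count of 0 allows up to 1.01 CPM in vehicle 5 and 0.0779 CPM in palbociclib 2, for counting error only. The 95% interval of a count of 0 ends somewhat higher, at 3.69 reads. The log2 fold change of Slc38a1 was -0.01 ± 0.44 (SE) on the log2(CPM + 1) scale, and -0.72 ± 1.09 (SE) with edgeR and -0.73 ± 1.08 (SE) with DESeq2 on the reads.

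Slc7a2 was at 70.0, 313, 179, 128 and 166 CPM with vehicle and 255, 179, 231, 269 and 135 CPM with palbociclib. The highest single tumour was vehicle 2, and the log2 fold change was 0.44 ± 0.34 (SE; limma adjusted p = 0.953), or 0.16 without vehicle 1. Slc1a4 was at 26.3, 165, 168, 115 and 181 CPM with vehicle and 288, 135, 141, 121 and 194 CPM with palbociclib, with vehicle 1 lowest and palbociclib 1 highest. Its log2 fold change was 0.61 ± 0.43 (SE; limma adjusted p = 0.953), or 0.11 without vehicle 1. Slc1a5 was at 16.1, 53.0, 42.9, 34.7 and 33.2 CPM with vehicle and 44.3, 28.4, 23.0, 42.6 and 46.6 CPM with palbociclib, and its groups overlapped. Its log2 fold change was 0.08 ± 0.31 (SE), and -0.0573 after TMM scaling.

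Among the large neutral amino acid carriers, Slc43a1 was at 5.14, 22.1, 18.3, 7.55 and 11.8 CPM with vehicle and 20.4, 15.9, 16.1, 18.9 and 13.1 CPM with palbociclib. The range of the vehicle tumours contained all 5 palbociclib tumours, and the log2 fold change was 0.51 ± 0.34 (SE; limma adjusted p = 0.953), or 0.25 without vehicle 1. Slc7a5 was at 10.4, 19.9, 12.7, 22.3 and 7.44 CPM with vehicle and 16.4, 8.77, 11.6, 18.5 and 17.7 CPM with palbociclib, with a log2 fold change of 0.06 ± 0.32 (SE), or -0.082 after TMM scaling. Slc3a2 was at 66.8, 108, 98.2, 132 and 102 CPM with vehicle and 93.0, 112, 65.9, 92.3 and 102 CPM with palbociclib, with a log2 fold change of -0.11 ± 0.24 (SE). Groups overlapped for both genes, with limma adjusted p of 0.987 and 0.966.

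None of the other lists held a gene past the threshold in the tumours. Of 20 other amino acid transporters tested, with a median log2 fold change of 0.20, Slc1a2, a glutamate carrier, was at 87.5 ± 19.9 CPM with vehicle and 136 ± 40.6 CPM with palbociclib (SD, n = 5 each; limma unadjusted p = 0.0482, adjusted p = 0.953), and Slc3a1 at 0.902 and 1.73 CPM. Slc7a11, the cystine and glutamate exchanger, was at 103 ± 31.4 and 101 ± 101 CPM, and Slc43a2 at 12.97 and 5.61 CPM. Of 19 amino acid response genes, with a median of -0.01, Gpt2 was at 158 and 233 CPM, Psph, which makes serine, at 17.7 and 22.1 CPM, Cebpb at 328 and 210 CPM, and Chac1 at 11.6 and 6.65 CPM. Of 22 enzymes, with a median of 0.35, Otc of the urea cycle was at 21.8 and 39.1 CPM, Bcat2 at 57.7 and 44.6 CPM, and Nos2 at 1.62 and 1.00 CPM.

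Within single libraries, ratios between partner genes differed between the livers and the tumours. The embryo and tumour values were counted and normalized separately, so these ratios are set side by side without a test. Slc7a5 per kb was 0.484 to 0.876 times Slc3a2 per kb in control livers and 0.507 to 0.639 times in fusion livers, against 0.0585 to 0.148 times in vehicle and 0.0628 to 0.161 times in palbociclib tumours. Slc1a4 per kb was 0.268 to 0.408 times Slc1a5 per kb in control livers and 0.218 to 0.348 times in fusion livers, but 1.15 to 3.84 times in vehicle and 2.01 to 4.59 times in palbociclib tumours. Slc38a3 was the highest of the 10 per kb in all 4 groups, at 116 ± 56.2 CPM per kb in vehicle and 126 ± 20.2 CPM per kb in palbociclib tumours (SD, n = 5 each). In palbociclib tumours it was followed by Slc1a4 (44.8), Slc38a4 (36.4), Slc3a2 (33.0), Slc38a2 (30.4), Slc7a2 (27.0), Slc1a5 (13.4), Slc43a1 (5.47), Slc7a5 (4.15) and Slc38a1 (0.155). Neighbours there did not overlap at Slc38a3 above Slc1a4, Slc7a2 above Slc1a5, Slc1a5 above Slc43a1 and Slc7a5 above Slc38a1. In vehicle tumours the order was Slc38a3, Slc3a2 (36.0), Slc1a4 (33.4), Slc38a2 (33.0), Slc7a2 (21.6), Slc38a4 (20.4), Slc1a5 (13.01), Slc43a1 (4.20), Slc7a5 (4.14) and Slc38a1 (0.176), and only the last 2 neighbours did not overlap.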

How the data were processed

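RNA was sequenced from 9 embryonic livers and 10 tumours, grouped by the genotype and treatment labels. For the embryos the authors deposited raw read counts by gene symbol, from poly-A RNA; 9 columns of scaled fragments were not used. Per the submitters' processing notes, STAR 2.5.1b, DESeq2 and the build mm10 were used for embryos, and cutadapt 2.10, HISAT2, featureCounts, DESeq2 and mm10 for tumours. The tumour files hold CPM deposited by the authors, in which 100% of values were whole multiples of 1 read (tolerance 0.001). The annotation and strand setting are not given in the sources used here.

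Counts were fitted with edgeR 4.0.16 (TMM, filterByExpr, quasi-likelihood test) and CPM with limma 3.58.1 in R 4.3.3 (trend, log2(CPM + 1), mean of at least 1 CPM, which understates changes of low genes), each over all libraries of the experiment with Benjamini-Hochberg adjustment over all genes and a threshold of 0.05. DESeq2 1.42.0 and edgeR on the recovered reads, which called 7 and 0 genes, were alternatives. SE of edgeR values is the log2 fold change divided by the root of F. Both pipelines were tested on simulated data. Positions, and transcript lengths for CPM per kb, are from GENCODE M21 on GRCm38 (the same build as mm10). The tests treat each library as independent, and the labels do not say how embryos relate to litters. The p-values may therefore be too small where embryos share a litter, and intervals cover the spread between these samples only.

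All 10 members are named with every library's value. Of each other list, up to 4 genes past the threshold with the smallest adjusted p are named per direction, or, where none passed, the 2 with the smallest unadjusted p per direction; 1 enzyme gene that this names in the tumours is not reported here. Slc7a1, Atf4, Gm26584 and single marker genes were named after their values were seen. The members and lists were chosen with earlier results of these data known.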

Additional observations from a re-analysis of the deposited data

Results flagged for a closer look

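In vehicle tumour 1 Slc38a4 was at 36.2 CPM, while the other 4 vehicle tumours lay between 87.3 and 98.8 CPM. The gap to the nearest tumour was 0.816 of the group's whole range, above the 95% critical value of Dixon's test. It was the 1 such case among 40 groups of values (10 genes in 4 groups), where chance gives about 2. The same library had 46.6% of its reads on mitochondrially encoded genes.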

How the results depend on the processing

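In embryonic liver Slc7a2, Slc38a2, Slc38a3, Slc38a4 and Slc1a4 kept their direction and passed the threshold under all 10 alternatives (scaling, filters, DESeq2, limma-voom, covariates, and each side of the ribosomal split) and without each embryo. Of the 10 genes, 5 to 7 passed, against 6 in the main fit, where 12.8% of all genes tested passed. That share ran from 7.33% without fusion 8 to 32.6% with the ribosomal split as a covariate. The count of 7 was reached with that covariate and with DESeq2, where 18.3% of all genes passed. The number of genes tested also changed, from 8311 with a mean of at least 10 CPM required to 13549 without a filter. All genes past the threshold numbered 1704, against 4345 with the ribosomal split as a covariate, 2589 and 2950 within its higher and lower sides, and 969 to 1581 without 1 embryo. Slc43a1 missed it with limma-voom (adjusted p = 0.0548), with Xist as a covariate (0.0701) and within the libraries of lower ribosomal share (0.0883). Reversed values, none past the threshold, were Slc38a1 with limma-voom (-0.0219) and Slc7a5 with limma-voom (0.12) and in the libraries of lower ribosomal share (0.17). Leaving out 1 embryo gave -0.0921 to 0.051 for Slc7a5 and -0.00178 to 0.13 for Slc3a2. The cause was not tested.

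In tumours none of the 10 genes passed under any of these settings, and 0 of all genes passed, against 7 with DESeq2. Reversed values were Slc7a5 and Slc1a5 with TMM factors (-0.082 and -0.0573), without mitochondrial genes (-0.0821 and -0.0557), with edgeR (-0.138 and -0.0521) and with DESeq2 on reads (-0.156 and -0.0659). Without vehicle 1 and 5 together, Slc7a5 was at -0.32, Slc1a5 at -0.26, Slc38a3 at -0.22, Slc38a2 at -0.51 and Slc38a1 at 0.053, and with a pseudocount of 0.1 Slc38a1 was at 0.0669. Leaving out 1 tumour gave -0.17 to 0.25 for Slc1a5, -0.26 to 0.24 for Slc38a1, -0.27 to 0.18 for Slc38a2, -0.12 to 0.54 for Slc38a3, -0.25 to 0.00449 for Slc3a2 and -0.14 to 0.23 for Slc7a5. Slc38a1 was at -0.72 with edgeR and -0.73 with DESeq2 on reads. It fell under the filter without vehicle 1 and at a mean of 10 CPM, so it has no value there. The cause was not tested.

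With the replicate block the tumour log2 fold changes were as in the fit without it, and 0 members and 0 genes passed. Deviations of same-numbered tumours from their group means correlated at -0.32 to 0.00. Such correlations cannot decide whether same-numbered tumours shared a day or batch, and the labels state no pairing. The embryo groups share no number. The shallow vehicle 5 library limits low genes such as Slc38a1.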
